A study of Homo sapiens with 24 samples.

Results

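The R1881 response of the prostate cancer cell lines LNCaP:C4-2 and 22Rv1 was compared gene by gene in the 12 siSCR libraries, which are 12 of the 24 libraries of the knockdown experiment. For each gene the difference between the lines was taken as the response of 22Rv1 (R1881 minus vehicle) minus the response of LNCaP:C4-2 on the log2 scale. A positive difference therefore marks a gene whose response was higher in 22Rv1, and a negative difference one whose response was lower there. Genes of opposite response were those called in both lines in opposite directions. They numbered 121 of 18542 genes tested.

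All 12 libraries came from cells in medium with charcoal-stripped serum that were transfected with siSCR, a pool of non-targeting siRNAs, left for 48 h without androgen, transfected with siSCR again and given R1881 or vehicle for 72 h. R1881 was used at 1 nM and the vehicle was ethanol. The 4 groups were LNCaP:C4-2 with vehicle, LNCaP:C4-2 with R1881, 22Rv1 with vehicle and 22Rv1 with R1881, with 3 libraries in each. Each line stands for 1 tumour only, and the labels do not say whether the 3 libraries of a group came from separate cultures, so p-values measure the spread between these libraries. The other 12 libraries had the same 4 groups with a pool of siRNAs against METTL3 (siMETTL3), an RNA methyltransferase, in place of siSCR. They took no part in the choice of genes and served as a second measurement of each difference in cells that carry a knockdown.

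Androgens are steroid hormones that activate some genes and repress others, in the prostate often at regulatory DNA that the factors FOXA1 and HOXB13 occupy. In prostate epithelium the best known androgen-induced genes encode secreted proteases such as KLK3 (prostate-specific antigen), and androgens also act on lipid synthesis and on cell division. R1881 (metribolone) is a synthetic androgen that cells hardly metabolise. LNCaP:C4-2 is a castration-resistant derivative of the LNCaP line, whereas 22Rv1 comes from a relapsed xenograft. Steroid-depleted serum removes most hormone, so that the vehicle groups give the level with little androgen.

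Library totals ran from 16798308 to 21030473 counted reads. The smallest readable signal was taken as 3 counts, which equalled 0.143 to 0.179 CPM on the raw library totals. All other CPM values are counts scaled to library totals adjusted by TMM, and on that scale 3 counts can lie outside this range. The SE of a response or a difference comes from the same fit as its p-value and includes the spread between libraries. Floors cover counting error only. Mitochondrial genes took 6.27%, 6.12% and 6.89% of the counts in 22Rv1 with vehicle and 4.99%, 4.96% and 5.28% with R1881, without overlap. In LNCaP:C4-2 they took 8.02%, 8.08% and 8.48% with vehicle and 7.08%, 9.73% and 9.69% with R1881, where the first library stood below the vehicle libraries and the others above. The part of this share in the results was not tested. The 10 luminal prostate markers were all detected in every group, with summed levels of 1938 to 2082 CPM in LNCaP:C4-2 with vehicle and of 1676 to 1855 CPM in 22Rv1 with vehicle. Of 18 markers of fibroblasts, endothelium, immune, basal and muscle cells, 9 to 12 had at most 3 counts in all libraries of a group. CD3E, CDH5, KRT5 and DES were among them in all 4 groups. Other markers of these cell types were detected, among them COL1A1 of fibroblasts and PTPRC of immune cells. The sum of these 18 markers was 49.3 to 71.5 CPM in LNCaP:C4-2 with vehicle and 49.6 to 57.8 with R1881, and it was 30.2 to 38.3 CPM in 22Rv1 with vehicle and 21 to 21.4 with R1881, most of it from COL1A1. Its part in the results was not tested. METTL3 was at 30.9, 28.3 and 26.3 CPM in LNCaP:C4-2 with vehicle and siSCR and at 19.5, 19.4 and 17.1 CPM with siMETTL3. In 22Rv1 with vehicle it was at 47.7, 46.4 and 47.1 CPM with siSCR and 25.7, 25 and 26.3 CPM with siMETTL3. With R1881 it was at 30.4, 33.3 and 35.4 CPM (siSCR) and 22, 21.6 and 22.1 CPM (siMETTL3) in LNCaP:C4-2, and at 51.8, 48.8 and 51.1 CPM and 21.6, 24.8 and 21.3 CPM in 22Rv1, so it was lower with siMETTL3 in every group. In bulk RNA a change in the number of cells of a kind and a change in RNA per cell cannot be told apart.

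The 2 lines differed in their R1881 response at 3203 genes, which is 17.3% of the 18542 genes tested (edgeR quasi-likelihood test, adjusted p under 0.05, no fold threshold). The response was higher in 22Rv1 for 1392 of them (7.51% of genes tested) and lower for 1811 (9.77%). This split moved with the scaling: it was 1949 higher and 1488 lower with library size alone, and 1171 higher and 2028 lower with RLE size factors, 2 other ways to set the library scale. Genes were called as DEGs within a line at an adjusted p under 0.05 and a change of at least 1.5-fold, and "rose" and "fell" are used below only of such calls. R1881 changed 2710 genes in LNCaP:C4-2 (14.6%), of which 1291 rose and 1419 fell. In 22Rv1 it changed 2247 genes (12.1%), of which 642 rose and 1605 fell. With library size alone the LNCaP:C4-2 calls split into 985 higher and 2022 lower, and the median response of all genes there was -0.14 in place of -0.01. Lists of genes are therefore described below beside the median of all genes.

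In all, 683 genes were DEGs in both lines. They comprised 212 that rose in both, 350 that fell in both and the 121 of opposite response, which are 0.653% of genes tested and 17.7% of the genes called in both lines. Of the opposite genes, 90 rose in LNCaP:C4-2 and fell in 22Rv1, and 31 fell in LNCaP:C4-2 and rose in 22Rv1. Among all genes tested, 6.96% rose and 7.65% fell in LNCaP:C4-2, and 3.46% rose and 8.66% fell in 22Rv1. Whether the shared or opposite calls are more or fewer than these rates alone would give was not tested. When the fit was repeated 12 times, each time with 1 library removed, 55 of the opposite genes were called in both lines every time, and 66 lost a call without at least 1 library. The first R1881 library of LNCaP:C4-2 lay above its 2 partners at several genes named below (NPPC, TMPRSS2, DUSP1, CDKN1C and GDF15), and without it 3435 genes differed in response and 131 were of opposite response, 101 of them among the 121. A further 989 genes rose in LNCaP:C4-2 with no call in 22Rv1, and at 670 of these the lines differed. Another 1038 genes fell in LNCaP:C4-2 with no call in 22Rv1, and the lines differed at 461 of them. In the other direction, 399 genes rose in 22Rv1 alone, with a difference called at 178, and 1165 fell in 22Rv1 alone, with a difference called at 428. For the remaining genes that are DEGs in 1 line only, a difference between the lines was not shown. Across the genes tested, the responses of the 2 lines had a Pearson r of 0.24, and over the 12943 genes with a mean of at least 1 CPM in each line it was 0.38. These are descriptions across genes, which are not independent replicates.

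**Figure D1:**
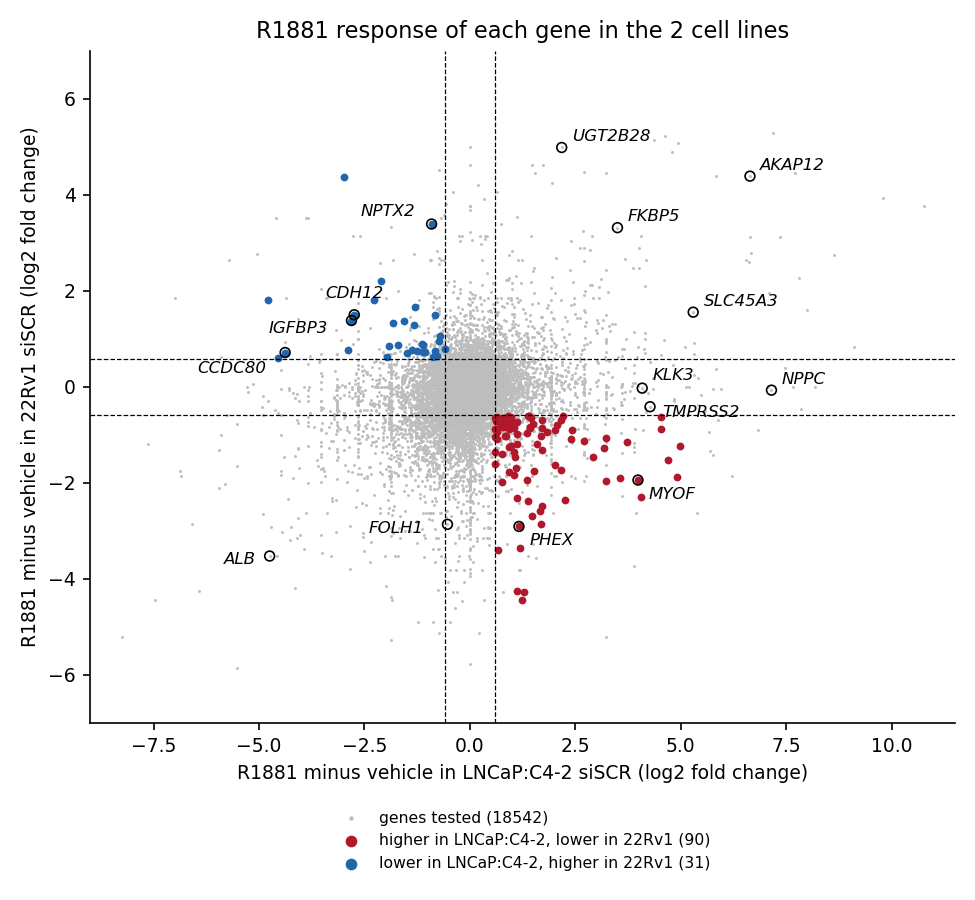
R1881 response (log2 fold change, R1881 minus vehicle, siSCR, 3 libraries a group) of the 18542 genes tested in LNCaP:C4-2 (x axis) and 22Rv1 (y axis), with dashed lines at 1.5-fold. The 90 genes that rose in LNCaP:C4-2 and fell in 22Rv1 are red, the 31 of the reverse pattern are blue, and named genes are circled. KLK3, TMPRSS2 and NPPC lie far to the right near a 22Rv1 response of 0, while FKBP5 and AKAP12 are high in both lines. The axes leave out 3 genes.

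The choice of the opposite genes used both responses, so their values in siSCR are given as a description. Among those with a mean of at least 1 CPM in each line, the gene whose smaller response was largest in the direction up in LNCaP:C4-2 and down in 22Rv1 was MYOF (chromosome 10, 93306429 to 93482317 of GRCh38), which encodes myoferlin, a membrane protein of vesicle fusion and repair. Its level was 1.86, 1.17 and 1.49 CPM in the 3 vehicle libraries of LNCaP:C4-2 and 20.9, 24.5 and 26.5 CPM in the R1881 libraries. In 22Rv1 it was 3.57, 2.30 and 3.41 CPM with vehicle and 1.08, 1.00 and 0.321 CPM with R1881. The groups of neither line overlapped, and the lines changed order: with vehicle 22Rv1 was above LNCaP:C4-2, and with R1881 it was far below. The responses were 3.99 (SE 0.24) and -1.95 (SE 0.31) on the log2 scale.

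CNTNAP2 (chromosome 7, 146116002 to 148420998), a neurexin-family adhesion protein, went from 6.67, 6.49 and 8.78 CPM to 20.5, 22.6 and 20.3 CPM in LNCaP:C4-2. In 22Rv1 it went from 4.05, 2.35 and 3.96 CPM to 0.702, 1.06 and 1.28 CPM. CRISPLD2, a secreted lipopolysaccharide-binding protein, rose from 1.69, 2.77 and 2.30 to 30.3, 13.6 and 19.3 CPM in LNCaP:C4-2 and fell from 2.56, 2.68 and 3.02 to 1.13, 1.11 and 1.66 CPM in 22Rv1. The vehicle levels of CRISPLD2 overlapped between the lines, and after R1881 every LNCaP:C4-2 library was above every 22Rv1 library. CRISP3, a secreted cysteine-rich protein of the male tract, had 0.546, 0.16 and 0.172 CPM and 2.06, 2.82 and 1.97 CPM in LNCaP:C4-2 against 1.97, 2.46 and 1.92 CPM and 0.81, 0.724 and 0.749 CPM in 22Rv1.

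PTPRN2, a phosphatase-like protein of secretory granules, is an example with small errors (SE 0.10 and 0.10). It went from 19.4, 18 and 18.1 CPM to 46, 36.1 and 37.4 CPM in LNCaP:C4-2 and from 129, 127 and 113 CPM to 56.4, 53.9 and 51.5 CPM in 22Rv1. Here the lines moved towards each other, and 22Rv1 stayed above LNCaP:C4-2 in every library. The same was seen for PALM, a lipid-anchored protein of the cell membrane, which was at 0.219, 0.319 and 0.057 CPM and 2.23, 1.35 and 2.03 CPM in LNCaP:C4-2 and at 27.8, 25 and 21.1 CPM and 10.5, 10.6 and 9.31 CPM in 22Rv1. KCNMB4, a subunit of calcium-activated potassium channels, had 0.437, 0.745 and 0.631 CPM and 2.82, 1.35 and 1.77 CPM in LNCaP:C4-2 and 6.72, 6.4 and 7.47 CPM and 2.81, 3.17 and 2.30 CPM in 22Rv1. In PHEX, a membrane endopeptidase of phosphate balance, the larger change was in 22Rv1, from 5.44, 4.59 and 7.31 CPM to 0.486, 1.00 and 0.802 CPM, against a change from 1.69, 2.87 and 2.53 CPM to 4.41, 7.37 and 4.26 CPM in LNCaP:C4-2. SOD3, the extracellular superoxide dismutase, had responses of 1.08 and -1.47 on the log2 scale. Among the 10 genes of this direction described by rule, 2 lost a call when a library was left out. The LNCaP:C4-2 call of SOD3 was lost without the first vehicle or the first R1881 library of that line (adjusted p = 0.0793 and 0.0633). The 22Rv1 call of CRISPLD2 was lost without any 1 of the 22Rv1 libraries other than the third R1881 library, with log2 values of -1.12 to -0.97 and adjusted p of 0.0531 to 0.0924.

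MUC1, an epithelial mucin of the cell surface, went from 3.83, 5.48 and 3.27 CPM to 11.4, 10.1 and 10.6 CPM in LNCaP:C4-2 and from 1.71, 1.80 and 1.76 CPM to 0.378, 0.835 and 0.16 CPM in 22Rv1. Its R1881 libraries in 22Rv1 held few counts, and the vehicle and R1881 groups did not overlap in either line. Steroid hormones act at DNA palindromes of paired hexamers, so the promoters of the opposite genes (250 bases before to 50 bases after the start, RefSeq, GRCh38.p14) were searched for the hexamer AGAACA or its complement TGTTCT. Of the opposite genes, 83 had a promoter in the table, and 8 of them held the hexamer (9.64%). The share among 12511 promoters of genes tested was 9.23%. The exact full palindrome, AGAACA and TGTTCT with 3 bases between them, was in none of either set. As it was absent from all 12511 promoters, this search cannot tell the sets apart. The forkhead motif TGTTTAC (or its complement) was in 0 of the 83 against 2.39% of all. The 3 promoters of named opposite genes that held the hexamer are printed 5′ to 3′ with its letters in capitals, since they show where these letters lie: MUC1 (chr1:155192866-155193165, minus strand) and CCDC80 (chr3:112641094-112641393, minus strand) held it 2 times each and CDH12 (chr5:22853295-22853594, minus strand) once. A match is a description of the letters and not a binding site.
MUC1: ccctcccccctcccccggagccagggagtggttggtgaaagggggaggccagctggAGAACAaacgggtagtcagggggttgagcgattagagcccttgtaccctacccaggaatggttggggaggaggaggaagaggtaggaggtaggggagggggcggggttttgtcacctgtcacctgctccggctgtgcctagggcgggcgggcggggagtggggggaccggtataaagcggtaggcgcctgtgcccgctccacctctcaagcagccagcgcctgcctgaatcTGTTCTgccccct
CCDC80: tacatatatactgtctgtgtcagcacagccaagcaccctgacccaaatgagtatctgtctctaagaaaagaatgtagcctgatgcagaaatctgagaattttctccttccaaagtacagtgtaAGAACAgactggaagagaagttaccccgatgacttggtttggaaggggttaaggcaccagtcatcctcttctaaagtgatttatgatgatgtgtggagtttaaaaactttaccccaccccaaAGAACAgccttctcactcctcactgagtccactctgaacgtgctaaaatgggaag
CDH12: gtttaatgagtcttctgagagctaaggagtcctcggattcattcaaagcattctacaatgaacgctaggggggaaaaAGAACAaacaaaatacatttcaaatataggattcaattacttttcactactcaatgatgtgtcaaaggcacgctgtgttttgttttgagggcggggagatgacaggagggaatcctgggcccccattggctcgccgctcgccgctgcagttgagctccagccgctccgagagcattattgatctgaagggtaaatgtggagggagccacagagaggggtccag

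In the reverse direction, down in LNCaP:C4-2 and up in 22Rv1, the gene with the largest smaller response was NLRC5, the transactivator of MHC class I genes. It went from 5.30, 3.83 and 4.08 CPM to 0.823, 0.961 and 1.25 CPM in LNCaP:C4-2 and from 0.373, 1.09 and 1.21 CPM to 3.89, 5.34 and 3.05 CPM in 22Rv1, so the lines exchanged their levels. CDH12, a neural cadherin, fell from 3.88, 4.31 and 5.51 CPM to 0.706, 0.705 and 0.624 CPM in LNCaP:C4-2 and rose from 5.39, 6.67 and 5.55 CPM to 15.9, 16 and 17.8 CPM in 22Rv1. IGFBP3 (chromosome 7, 45912245 to 45921874), the main carrier of insulin-like growth factors in blood, had the largest counts of these 10. It was at 48.7, 41.8 and 52.9 CPM with vehicle and 5.88, 5.19 and 9.15 CPM with R1881 in LNCaP:C4-2, and at 118, 115 and 120.2 CPM and 326, 304 and 287 CPM in 22Rv1. The 3 libraries of each group lay close together against a gap between the lines that widened from the vehicle to the R1881 libraries.

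COL16A1, a fibril-associated collagen, fell from 10.4, 9.79 and 4.48 CPM to 3.29, 2.37 and 2.65 CPM in LNCaP:C4-2 and rose from 1.44, 0.93 and 0.769 CPM to 3.02, 3.39 and 1.77 CPM in 22Rv1. MBOAT1, an acyltransferase of phospholipids, had 4.10, 4.58 and 4.42 CPM and 1.53, 1.67 and 2.08 CPM in LNCaP:C4-2 against 0.427, 0.328 and 0.879 CPM and 1.73, 1.34 and 2.14 CPM in 22Rv1. NPTX2, a secreted neuronal pentraxin, moved mostly in 22Rv1, from 1.76, 2.57 and 2.09 CPM to 23.4, 20.4 and 23.6 CPM, while LNCaP:C4-2 went from 5.63, 5.32 and 5.74 CPM to 3.41, 2.37 and 3.07 CPM. RDH10, which makes retinal from retinol, moved mostly in LNCaP:C4-2, from 37.3, 44.3 and 43.1 CPM to 12.3, 13.6 and 12.5 CPM, against 9.23, 7.71 and 9.73 CPM and 15.1, 17 and 16.5 CPM in 22Rv1. After R1881 the RDH10 levels of the lines lay close together, with 22Rv1 above. INHBE, an activin subunit, and SERHL2, a serine hydrolase-like gene, had responses of -1.12 and 0.88, and of -1.14 and 0.88, on the log2 scale in LNCaP:C4-2 and 22Rv1. The 22Rv1 call of COL16A1 was lost without the second vehicle or the second R1881 library of 22Rv1 (adjusted p = 0.0523 and 0.0633), and the LNCaP:C4-2 call of UGT2B4, described with its family below, was lost without any 1 of 4 of that line's libraries (the first and the third of each treatment, adjusted p of 0.0614 to 0.0896).

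**Figure D2:**
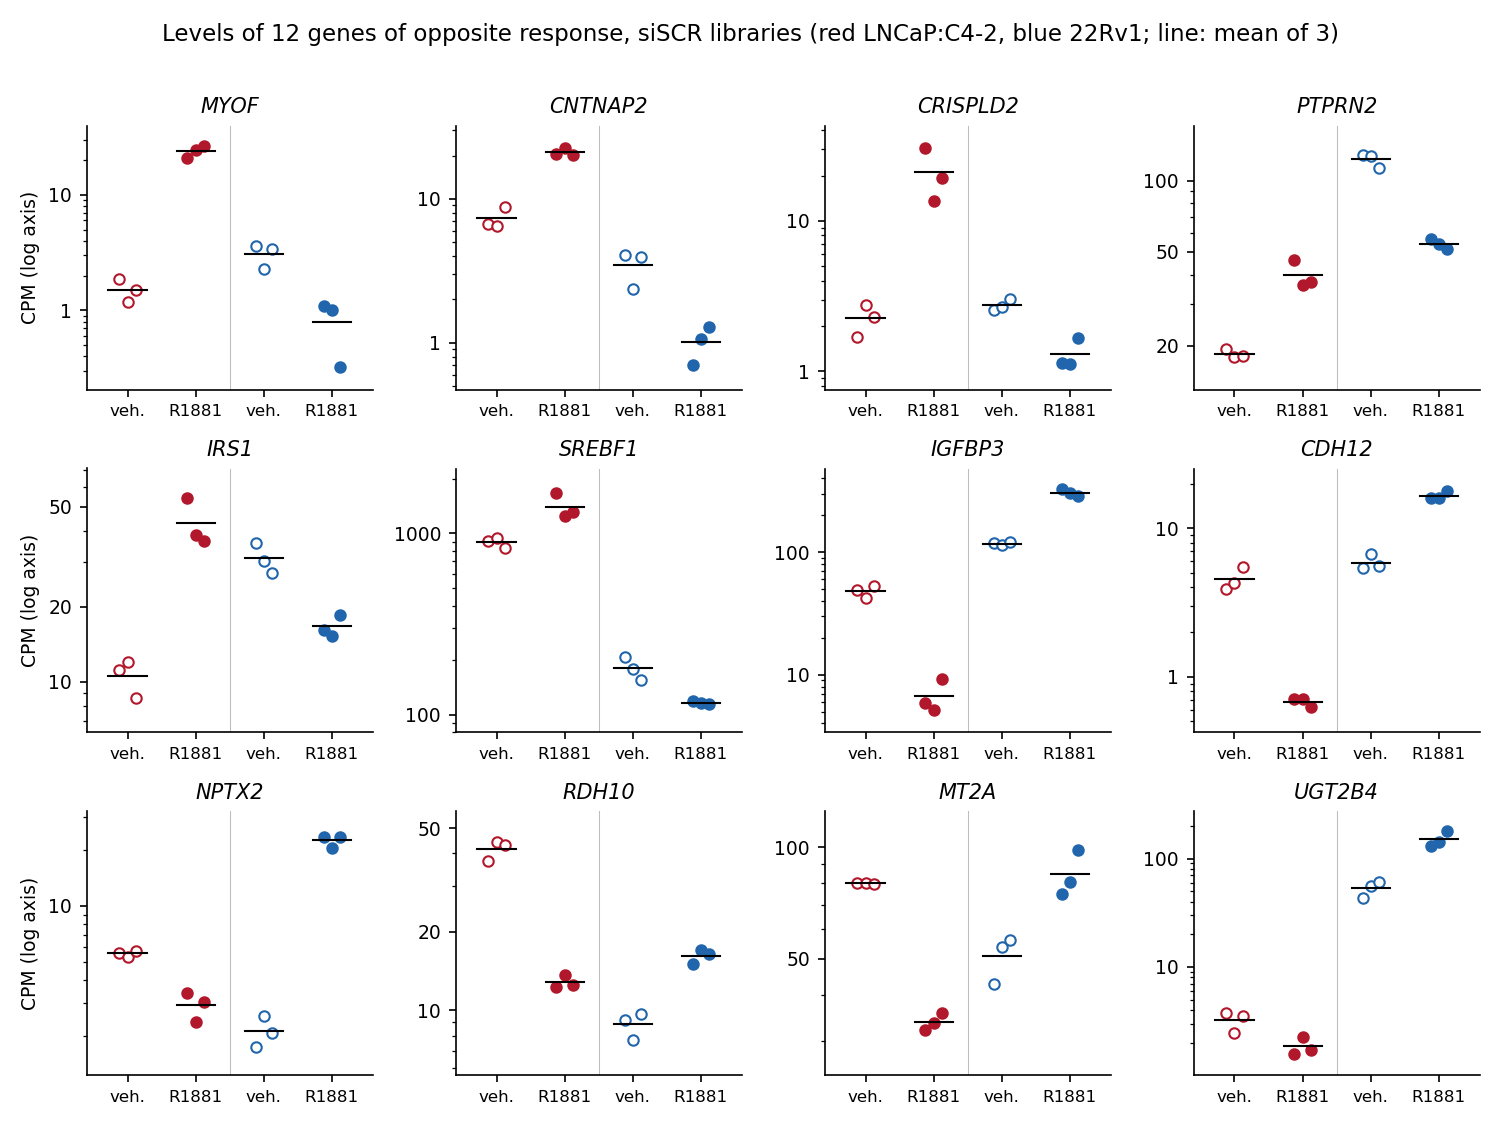
CPM on a log axis of 12 of the genes of opposite response in each of the 12 siSCR libraries, open circles for vehicle and filled circles for R1881, red for LNCaP:C4-2 and blue for 22Rv1, with a line at the mean of 3 libraries. The first 6 genes rose in LNCaP:C4-2 and fell in 22Rv1, and the last 6 did the reverse. IGFBP3 ends at 5.88, 5.19 and 9.15 CPM in LNCaP:C4-2 and at 326, 304 and 287 CPM in 22Rv1.

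Over all 121 opposite genes, 113 had vehicle and R1881 libraries without overlap in both lines, and 8 overlapped in at least 1 line. Of all genes tested, 5.09% had libraries without overlap in opposite directions. Their CPM, which is not per length, was lower than that of other genes, with medians of 4.49 CPM in LNCaP:C4-2 and 5.69 CPM in 22Rv1 against 13 and 13.9 CPM over all genes tested. A mean of at least 1 CPM in each line was reached by 83 of them, and 26 had a group with at most 3 counts in all libraries, for which a response is a lower bound. Such a bound can be under the 1.5-fold threshold of the call, as for SEMA6D, described below. The median responses of the 90 genes were 1.21 in LNCaP:C4-2 and -1.06 in 22Rv1, or 1.08 and -1.03 with the genes at the floor set to their bound. Those of the 31 genes were -1.36 and 0.88, or -1.24 and 0.88 at the bound. The members just inside the 1.5-fold threshold (log2 0.585) were LGR4, EVL, TUBA1A and CSGALNACT1, with smaller responses of 0.59 to 0.60 in size, and those just outside it were H4C8, CDC6, NECTIN3 and IRS2 with 0.57 to 0.58.

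The order of the 2 lines turned with treatment at some of these genes and not at others. Of the 90 genes that rose in LNCaP:C4-2, 22Rv1 had the higher mean with vehicle at 54 and with R1881 at 29, and the order of the lines turned at 25. Of the 31 genes that fell in LNCaP:C4-2, 22Rv1 was higher at 17 with vehicle and at 29 with R1881, and the order turned at 12. The pathway lists and the cell type markers together name 683 genes with a matched ID, beside 18542 genes tested. They were chosen with earlier results of these data known, so membership in them is a description only. Of the opposite genes, 18 were in the pathway lists described below and 103 in none. Some of the latter, named here after their values were seen, encode known proteins of other kinds: CLU (clusterin, a chaperone) was at 14 ± 0.63 and 6.65 ± 0.378 CPM in LNCaP:C4-2 without and with R1881 and at 495 ± 38.8 and 820.0 ± 49 CPM in 22Rv1 (SD, n = 3). SYT4, a vesicle protein of neuroendocrine cells, was at 1.23 ± 0.455 and 2.70 ± 0.732 CPM in LNCaP:C4-2 and at 589 ± 109 and 296 ± 17.8 CPM in 22Rv1. TOB1, an antiproliferative adaptor of mRNA decay, was at 113 ± 3.09 and 190.3 ± 20.3 CPM and at 528 ± 7.69 and 199 ± 2.78 CPM in the same order. GCLC, the catalytic subunit of glutathione synthesis, was at 89.1 ± 6.02 and 54.1 ± 2.23 CPM in LNCaP:C4-2 and at 89.8 ± 3.63 and 172 ± 4.26 CPM in 22Rv1.

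The siMETTL3 libraries gave a test of the difference in samples that had no part in the choice. In them the lines differed at 2533 of 18547 genes tested, or 13.7%. All 121 opposite genes were tested there (the background is 6.58% called higher and 7.08% called lower), and 96 of them were called in the same direction and 0 in the other. The sign of the difference was kept at 119. It was also kept at 3044 of all 3183 called siSCR differences that were tested in siMETTL3, so a kept sign is not particular to the opposite genes. Both responses of the opposite genes kept their sign at 108 and were again DEGs in opposite directions at 46, where 0.507% of all genes tested were. The median size of the difference was 2.59 in siSCR and 1.81 in siMETTL3. The siSCR values chose these genes, so the 2 medians are not on an equal footing. Among the 83 opposite genes with at least 1 CPM in each line, 79 were called in siMETTL3.

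The difference of MYOF was -5.26 (SE 0.35, adjusted p = 3.21e-08) in the siMETTL3 libraries. That of PTPRN2 was -2.21 (SE 0.13, adjusted p = 5.80e-09), that of IGFBP3 2.52 (SE 0.23, adjusted p = 1.52e-06) and that of NPTX2 4.47 (SE 0.27, adjusted p = 7.71e-09). Of the 20 opposite genes described by rule, SERHL2 was the one without a call there, at 0.24 (SE 0.32, adjusted p = 0.702). The difference between the pools of this cell-line difference, fitted over all 24 libraries as an addition made after seeing the data, was called at 0 of 19437 genes (0.0%) by edgeR's quasi-likelihood test, with 1179 at an unadjusted p under 0.05. The power of this contrast was not simulated, so the absence of calls does not show that the cell-line difference was equal in both pools. Of all siSCR differences called, 3183 were tested in siMETTL3 and 1573 were called in the same direction. These are 49.4% of the siSCR calls and 62.1% of the siMETTL3 calls, and 0 were called in the other direction.

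**Figure D3:**
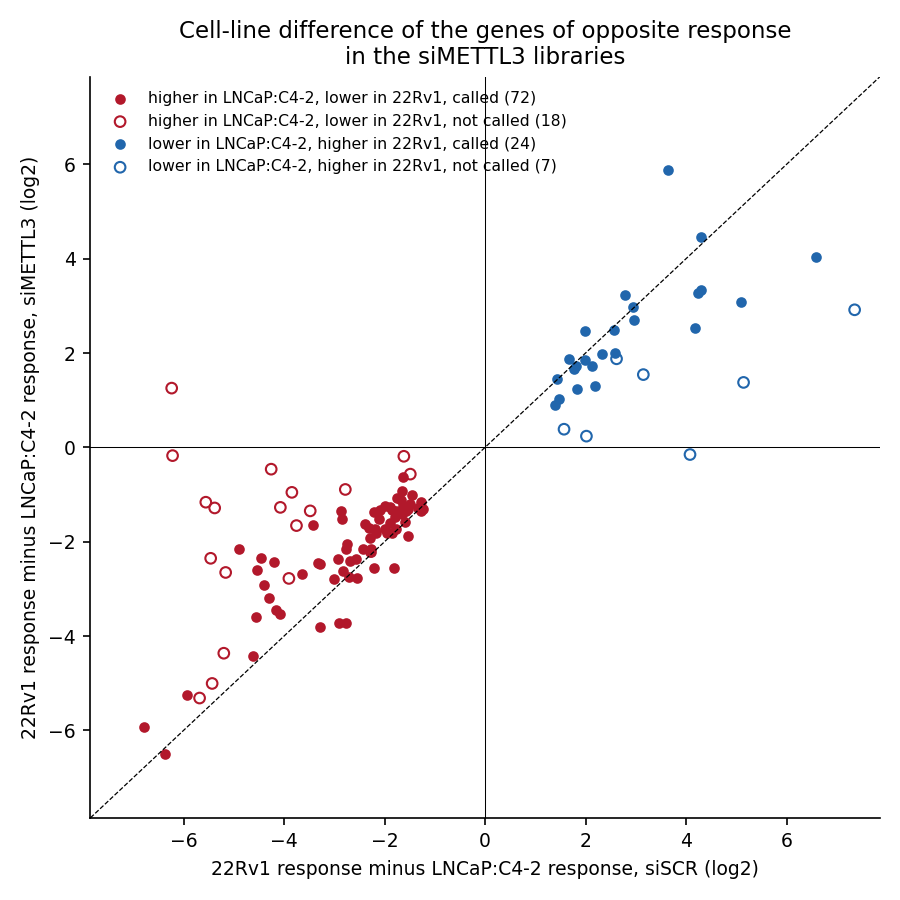
Difference between the lines (22Rv1 response minus LNCaP:C4-2 response, log2) of the 121 opposite genes in the siSCR libraries that chose them (x axis) and in the siMETTL3 libraries (y axis), with the line of equality dashed. Filled circles are called in siMETTL3 (72 red and 24 blue) and open circles are not (18 and 7). Of the 121 genes, 119 lie on the same side of 0 on both axes. The sign was also kept at 3044 of all 3183 called siSCR differences tested in siMETTL3 (not drawn).

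The largest fitted differences among the genes with at least 1 CPM in each line included MYOF and the following. NPPC, the precursor of C-type natriuretic peptide, went from 0.546, 0.373 and 0.574 CPM to 123, 43.7 and 47.6 CPM in LNCaP:C4-2 and was at 1.44, 0.984 and 0.824 CPM and 1.40, 0.612 and 1.07 CPM in 22Rv1, a difference of -7.23 (SE 0.85, adjusted p = 1.17e-05). The first R1881 library of LNCaP:C4-2 was far above its 2 partners, and without it the call held. SLC2A3, a glucose transporter, had 0 counts in the 3 vehicle libraries of LNCaP:C4-2 and 16.3, 7.75 and 11.9 CPM with R1881, a log2 response of at least 6.18, against 0.053, 0.219 and 0.165 CPM and 1.89, 1.84 and 2.46 CPM in 22Rv1 (log2 3.77). SLC26A3, an anion exchanger, likewise had 0 counts with vehicle in LNCaP:C4-2 and a log2 response of at least 5.22, against 3.94 in 22Rv1. TRGC1, a constant segment of the T cell receptor gamma locus, rose by a log2 response of at least 4.04 in LNCaP:C4-2 and was at 13, 10.6 and 17.8 CPM and 10.5, 13.3 and 16 CPM in 22Rv1. Reads of TRGC1 may also fit its close copy TRGC2.

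In the other direction, the largest called difference among the genes with at least 1 CPM in each line was that of CCDC80, a secreted matrix protein, at 5.09 (SE 0.29, adjusted p = 1.55e-09). It is a gene of opposite response, which fell from 22.3, 22.2 and 22.4 CPM to 1.12, 1.28 and 0.832 CPM in LNCaP:C4-2 and rose from 1.23, 1.31 and 0.934 CPM to 1.73, 1.78 and 2.19 CPM in 22Rv1. The fall in LNCaP:C4-2 took its level from far above 22Rv1 to the range of the 22Rv1 vehicle libraries. The small rise in 22Rv1 was lost without the first vehicle, the third vehicle or the third R1881 library of 22Rv1 (adjusted p = 0.0574, 0.0668 and 0.133), while the difference was called throughout. PCDH19, a neural protocadherin, fell from 36.1, 33 and 35.2 CPM to 0.412, 0.705 and 0.624 CPM in LNCaP:C4-2 and from 1.76, 1.42 and 1.98 CPM to 1.19, 0.946 and 0.428 CPM in 22Rv1, with a difference of 4.89 (SE 0.41, adjusted p = 2.32e-07). Without the third R1881 library of 22Rv1 its fall there was not called (log2 -0.71, adjusted p = 0.0735). SERPINI1, the neural protease inhibitor neuroserpin, went from 3.22, 3.73 and 4.19 CPM to 0.059, 0 and 0.26 CPM in LNCaP:C4-2 and from 9.55, 9.30 and 11.7 CPM to 9.34, 6.07 and 7.44 CPM in 22Rv1.

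A difference can only be measured where a gene is detected. Among the genes with a difference called, 10 had at most 3 counts in all 6 libraries of LNCaP:C4-2 and 11 in all 6 of 22Rv1. AQP4-AS1, an antisense RNA whose reads cannot be told from those of its partner without strand, had 0, 0.053 and 0.057 CPM with vehicle and 2.29, 2.11 and 2.70 CPM with R1881 in LNCaP:C4-2, a log2 response of at least 3.84, and stayed at or under 3 counts in 22Rv1. MGAT4C, a glycosyltransferase of N-glycan branching, fell from 19.4, 17.8 and 26.3 CPM to 1.62, 0.946 and 2.14 CPM in 22Rv1 and was at or under 3 counts in LNCaP:C4-2, and its call was lost without the third R1881 library of LNCaP:C4-2 (adjusted p = 0.0684). For the other 6 such genes named by rule (ADGRG5, WNT2, DPEP3, ADAM7, TMEM100 and ABCB11) the call was lost when at least 1 library was left out. The response of these 8 genes could not be measured in the line where they were at the floor, so no difference between the lines is drawn from them. ADAM7, for example, rose in LNCaP:C4-2 by a log2 response of at least 3.59, and without the first vehicle library of 22Rv1 the adjusted p of its difference was 1.00. Of 1119 tested genes at the floor in all LNCaP:C4-2 libraries, 299 were DEGs in 22Rv1. Of 342 at the floor in all 22Rv1 libraries, 114 were DEGs in LNCaP:C4-2. Among all genes tested 12.1% were DEGs in 22Rv1 and 14.6% in LNCaP:C4-2. The genes at the floor in a line passed the filter only through the other line, so these counts do not compare the responses of the lines.

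The vehicle level in 22Rv1 gives the starting point of each comparison. At 829 genes that rose in LNCaP:C4-2 with a lower response in 22Rv1, the 22Rv1 vehicle mean lay above both LNCaP:C4-2 means at 263, between them at 221, and below both at 339, and it was at the floor at 6. At 541 genes that fell in LNCaP:C4-2 with a higher response in 22Rv1, it lay above both at 246, between at 156, below both at 135 and at the floor at 4. No single ordering of the starting levels thus held for these genes.

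Some genes responded strongly in the same direction in both lines. AKAP12, a kinase anchoring protein, rose from 1.15, 1.97 and 0.976 CPM to 152, 124 and 138 CPM in LNCaP:C4-2 and from 23.9, 21.2 and 21.2 CPM to 486, 431 and 471 CPM in 22Rv1, with a smaller response in 22Rv1 (difference -2.26, SE 0.21, adjusted p = 7.02e-07). TGM2, a transglutaminase, rose by 4.79 and 4.90 on the log2 scale, and the difference of 0.11 (SE 0.74) was not called (adjusted p = 0.965). Its sign was negative without the first vehicle library of 22Rv1 (-0.27) or without the second or the third R1881 library of LNCaP:C4-2 (-0.12 and -0.10). FKBP5, a co-chaperone of steroid receptors, rose from 82.9, 80.0 and 90.1 CPM to 1044, 909 and 910.1 CPM in LNCaP:C4-2 and from 181, 188 and 191 CPM to 1839.6, 1788 and 1939 CPM in 22Rv1, a difference of -0.19 (SE 0.11) that was not called (adjusted p = 0.265). Among the genes that fell in both, ALB, serum albumin, went from 748, 796 and 996 CPM to 63.6, 73.3 and 83.2 CPM in 22Rv1 and from 4.15, 3.78 and 5.11 CPM to 0.118, 0.384 and 0 CPM in LNCaP:C4-2, and its difference of 1.22 (SE 0.58, adjusted p = 0.172) was not called, but it was with no filter on low counts (1.24, adjusted p = 0.0422) and without the second R1881 library of LNCaP:C4-2 (2.60). GC, the vitamin D-binding protein, fell from 37.2, 35.5 and 42.5 CPM to 1.24, 1.00 and 0.856 CPM in 22Rv1 and by a log2 response of at least 6.82 in size in LNCaP:C4-2. Unlike that of ALB, its difference was called by edgeR's quasi-likelihood test (fitted value 3.05, adjusted p = 0.00176). The size of this difference is uncertain, since the LNCaP:C4-2 response is a bound. CBLN2, a synaptic organiser, and FFAR2, a receptor of short-chain fatty acids, also fell in both, with responses of -3.94 and -3.39, and of -2.70 and -2.50, in LNCaP:C4-2 and 22Rv1. Neither difference was called (adjusted p = 0.212 and 0.883), and that of FFAR2 was -0.79 in place of 0.20 without the second R1881 library of 22Rv1.

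The 28 pathway lists were each described by the number of members called and the median, beside the values of all genes: 7.51% higher and 9.77% lower for the difference, a median difference of 0.01, and shares of 6.96% higher and 7.65% lower in LNCaP:C4-2 and of 3.46% higher and 8.66% lower in 22Rv1. The largest median difference in size among lists of at least 10 genes was that of the 30 androgen-induced genes, at -2.11. In LNCaP:C4-2 29 of the 30 rose and 0 fell, with a median of 2.82. In 22Rv1 13 rose and 3 fell, with a median of 0.47. The response was lower in 22Rv1 for 26 and higher for 1. The median lay between -2.15 and -2.03 with other scalings. In the siMETTL3 libraries the counts were 26 and 1 of 30, against 7.08% and 6.58% of all genes there.

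KLK3, prostate-specific antigen, went from 22, 20.8 and 15.7 CPM to 367, 313 and 315 CPM in LNCaP:C4-2. In 22Rv1 it was at 7.15, 6.51 and 6.54 CPM with vehicle and 6.16, 6.18 and 7.44 CPM with R1881. The vehicle and R1881 libraries overlapped in 22Rv1, and the difference was -4.12 (SE 0.18, adjusted p = 1.41e-10). KLK2, a kallikrein that activates prostate-specific antigen, went from 17.2, 18.1 and 12 CPM to 255, 247 and 253 CPM in LNCaP:C4-2 and was at 35.5, 30.7 and 29.5 CPM and 34.9, 29.7 and 32.2 CPM in 22Rv1. With vehicle KLK2 was thus higher in 22Rv1 than in LNCaP:C4-2, and KLK3 was lower. TMPRSS2, a membrane serine protease, rose from 51.8, 49.3 and 44.5 CPM to 1232, 803 and 782 CPM in LNCaP:C4-2 and had 7.73, 5.85 and 5.72 CPM and 5.51, 4.62 and 4.33 CPM in 22Rv1, where it was not called (log2 -0.42, adjusted p = 0.155).

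SLC45A3, a sugar transporter of prostate epithelium, rose in both lines, by 5.30 and 1.55 on the log2 scale. This list holds 3 genes of opposite response. KLK4, a kallikrein, fell in 22Rv1 from 211, 184 and 149.9 CPM to 107, 101 and 95.2 CPM and rose in LNCaP:C4-2 from 49.5, 46.3 and 33 CPM to 133, 107 and 108 CPM. PLPP1, a lipid phosphatase, had responses of 2.21 and -0.62, and PART1, a prostate RNA without a protein, of 1.70 and -0.69. In 22Rv1 both were close to the 1.5-fold threshold and fell below it without 1 library, PLPP1 without the first vehicle, the third vehicle or the third R1881 library (-0.56) and PART1 without the third vehicle library (-0.52). The list has 1 member with a higher response in 22Rv1, STEAP2, a metalloreductase, with 0.49 and 1.60. STEAP4, of the same family, rose in LNCaP:C4-2 by at least 4.06 and in 22Rv1 by 2.74, and its difference was lost without the first or the second vehicle library of LNCaP:C4-2 (adjusted p = 0.0543 and 0.0548).

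**Figure D4:**
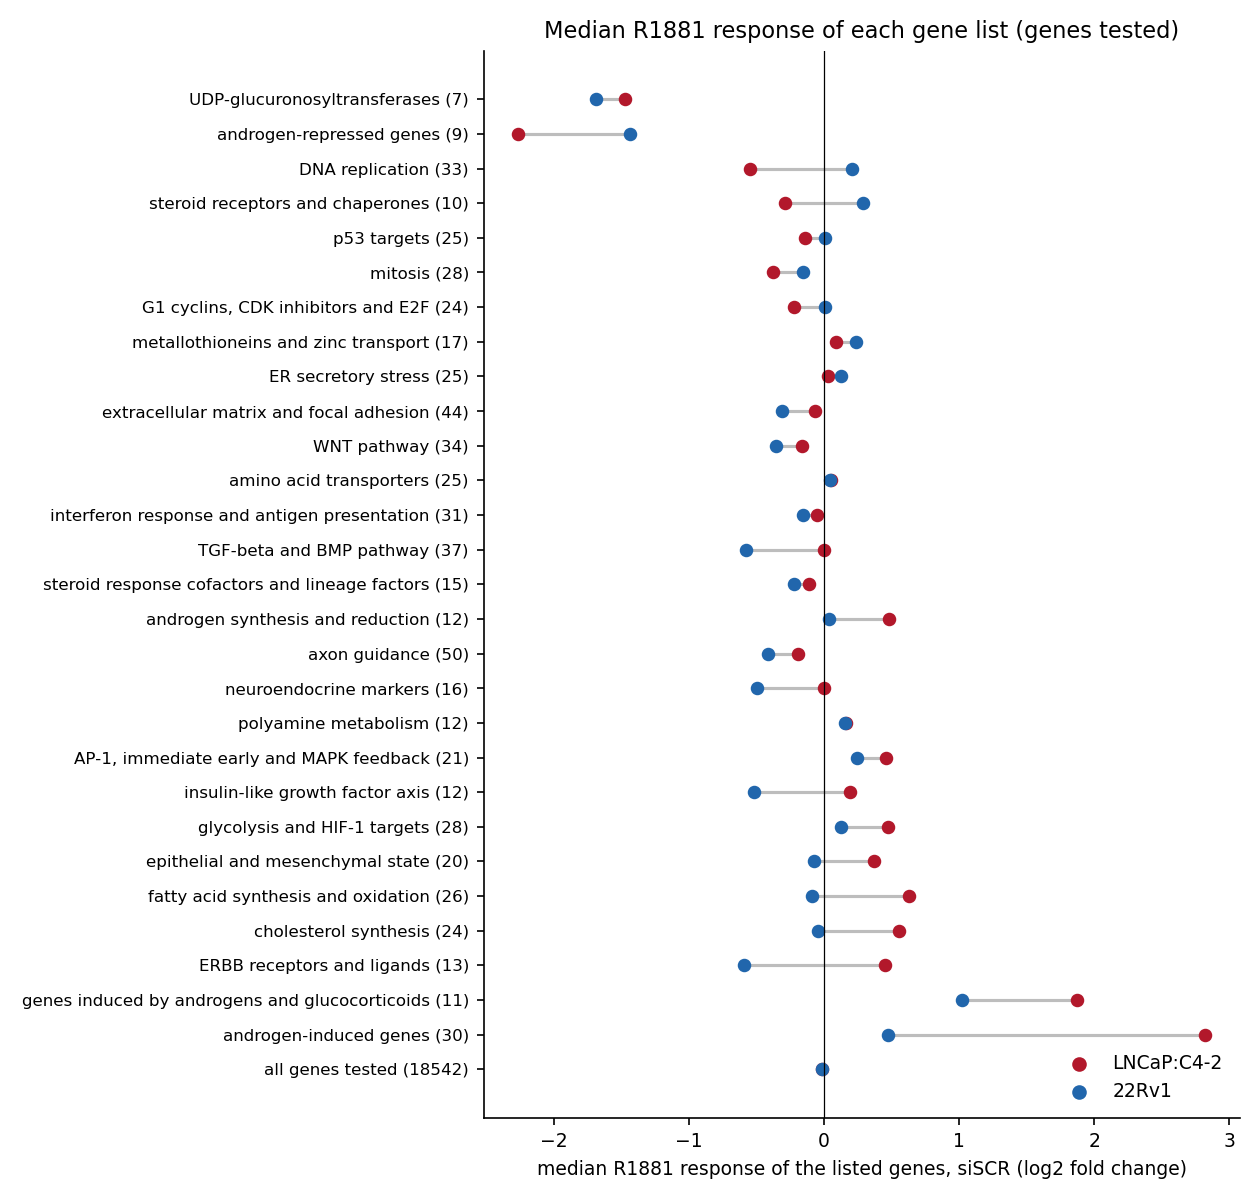
Median R1881 response (log2 fold change, siSCR) of the tested genes of each list in LNCaP:C4-2 (red) and 22Rv1 (blue), with the number of genes tested in brackets and all genes tested at the bottom. Lists are in the order of their median difference. The androgen-induced genes have medians of 2.82 and 0.47, and the DNA replication genes of -0.54 and 0.21, on opposite sides of 0.

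Of the androgen-repressed genes, 7 of 9 fell in LNCaP:C4-2 and 7 in 22Rv1. The difference was higher in 22Rv1 for 4 and lower for 1, with a median difference of 0.76, or 0.38 with members at the floor set to their bound. The median was 0.08 without the third R1881 library of 22Rv1. With siMETTL3 it was 0.01, with 3 higher and 2 lower, so no common direction was seen over this list. FOLH1, prostate-specific membrane antigen, was the lower one with siSCR: it went from 104, 102 and 121 CPM to 13.4, 15.8 and 15.5 CPM in 22Rv1 and from 1380.5, 1349 and 1414 CPM to 934, 970.3 and 962 CPM in LNCaP:C4-2 (difference -2.34, SE 0.12, adjusted p = 3.55e-10). MET, the hepatocyte growth factor receptor, fell more in LNCaP:C4-2, with -2.63 against -0.79. BCHE, butyrylcholinesterase, had responses of -4.16 and -1.44, and CAMK2N1, an inhibitor of a calcium-dependent kinase, of -1.75 and -0.99. METTL3 had a difference of -0.11 (SE 0.13, adjusted p = 0.625).

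Of 11 genes that androgens and glucocorticoids are both known to induce, 9 rose in LNCaP:C4-2 and 7 in 22Rv1. The response was lower in 22Rv1 for 6 and higher for 2, and the median difference was -1.46. The higher ones were MT2A, described below, and KLF9, a zinc finger factor, at 29.4, 28.6 and 29.5 CPM and 77.5, 69.7 and 76.3 CPM in 22Rv1 against 54.4, 61.7 and 62.9 CPM and 85.9, 73.8 and 77.9 CPM in LNCaP:C4-2 (difference 0.94, SE 0.12, adjusted p = 4.00e-05). TSC22D3, known as GILZ, rose by 1.23 in LNCaP:C4-2 and was at -0.39 in 22Rv1. NR3C1, the glucocorticoid receptor, was at 53, 60.0 and 54.8 CPM with vehicle and 67.5, 66.6 and 67.2 CPM with R1881 in 22Rv1 and near the floor in LNCaP:C4-2, with 0.383, 0.213 and 0.287 CPM and 0.059, 0.064 and 0.104 CPM. Its difference was lost without the first vehicle, the first R1881 or the second R1881 library of LNCaP:C4-2 (adjusted p = 0.0945, 0.0633 and 0.051). Of 10 steroid receptors and chaperones, 4 had a higher response in 22Rv1 and 0 a lower one, with a median difference of 0.40, and the count was 1 without the first vehicle or the second R1881 library of LNCaP:C4-2. DNAJA1, a heat shock co-chaperone, had a difference of 0.75 (SE 0.11, adjusted p = 0.000154).

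UDP-glucuronosyltransferases of the 2B family conjugate steroids, androgens among them, for removal. Of 7 members, 5 had a higher response in 22Rv1 and 0 a lower one, and the median difference was 2.32, or 1.04 with UGT2B7 at its bound. The direction within a line was mixed, with 2 up and 5 down in LNCaP:C4-2 and 3 up and 4 down in 22Rv1. UGT2B28 rose in both lines, from 1.44, 1.31 and 1.87 CPM to 42.9, 44.3 and 59.6 CPM in 22Rv1 and from 9.29, 10.9 and 14.5 CPM to 33.6, 58.9 and 63.9 CPM in LNCaP:C4-2. UGT2B11 went from 12.4, 13.2 and 18.2 CPM to 158, 153 and 197 CPM in 22Rv1 and from 41.3, 35.6 and 49.5 CPM to 60.3, 101 and 112 CPM in LNCaP:C4-2. UGT2B4 was a gene of opposite response, with 43.4, 56 and 60.8 CPM and 131, 143 and 179.6 CPM in 22Rv1 and 3.77, 2.45 and 3.56 CPM and 1.59, 2.24 and 1.72 CPM in LNCaP:C4-2. These genes are near-identical copies whose reads may fit several members, so the values of single members are uncertain. Of 12 genes of androgen synthesis and reduction, 3 had a lower and 1 a higher response in 22Rv1 (median difference -0.20), and the total was 2 without any 1 of 7 libraries. The median ran from -0.81 without the second vehicle library of LNCaP:C4-2 to -0.10 without the first, and was -0.38 without the first or the third R1881 library of that line. CYB5A, a cofactor of androgen synthesis, had a difference of -0.83 (SE 0.13, adjusted p = 0.000257).

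Of 15 steroid response cofactors and lineage factors, 6 had a lower response in 22Rv1 and 1 a higher one, with a median difference of -0.13. SPDEF, an ETS factor of luminal cells, rose from 65, 66.6 and 60.6 CPM to 323, 224 and 222 CPM in LNCaP:C4-2 and was at 177, 188 and 149 CPM and 167, 161 and 158 CPM in 22Rv1. GRHL2, a factor of epithelial junction genes, and PIAS1, a SUMO ligase, rose in LNCaP:C4-2 by 1.09 and 1.66 and had -0.22 and 0.28 in 22Rv1. HOXB13, a factor of the prostate lineage, differed from these: it fell in 22Rv1 from 94.4, 91.2 and 76.7 CPM to 33.4, 35.5 and 31.9 CPM and was at 463, 455 and 395 CPM and 512, 351 and 345 CPM in LNCaP:C4-2, where the groups overlapped.

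The median responses of the DNA replication genes lay on opposite sides of 0 in the 2 lines, while 0 members were genes of opposite response. All 33 members were tested. The median difference was 0.70, and the response was higher in 22Rv1 for 26 of them and lower for 0, against 7.51% and 9.77% of all genes. The median response was -0.54 in LNCaP:C4-2, where 15 fell and 0 rose. In 22Rv1 it was 0.21, and 0 members passed the 1.5-fold threshold in either direction. The median in 22Rv1 stayed above 0 with other scalings, at 0.16 to 0.18, and that in LNCaP:C4-2 below 0, at -0.67 to -0.53. MCM5, a subunit of the replicative helicase, went from 89.1, 88.4 and 90.9 CPM to 47.2, 51.9 and 52.1 CPM in LNCaP:C4-2 and from 117, 113 and 104 CPM to 134, 136 and 135 CPM in 22Rv1 (difference 1.10, SE 0.11, adjusted p = 1.13e-06). MCM2 and MCM3, of the same helicase, had differences of 0.97 and 0.99, and FEN1, the flap endonuclease of lagging-strand synthesis, of 0.90. With siMETTL3 14 of the 33 were called in the same direction, with a median difference of 0.48.

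**Figure D5:**
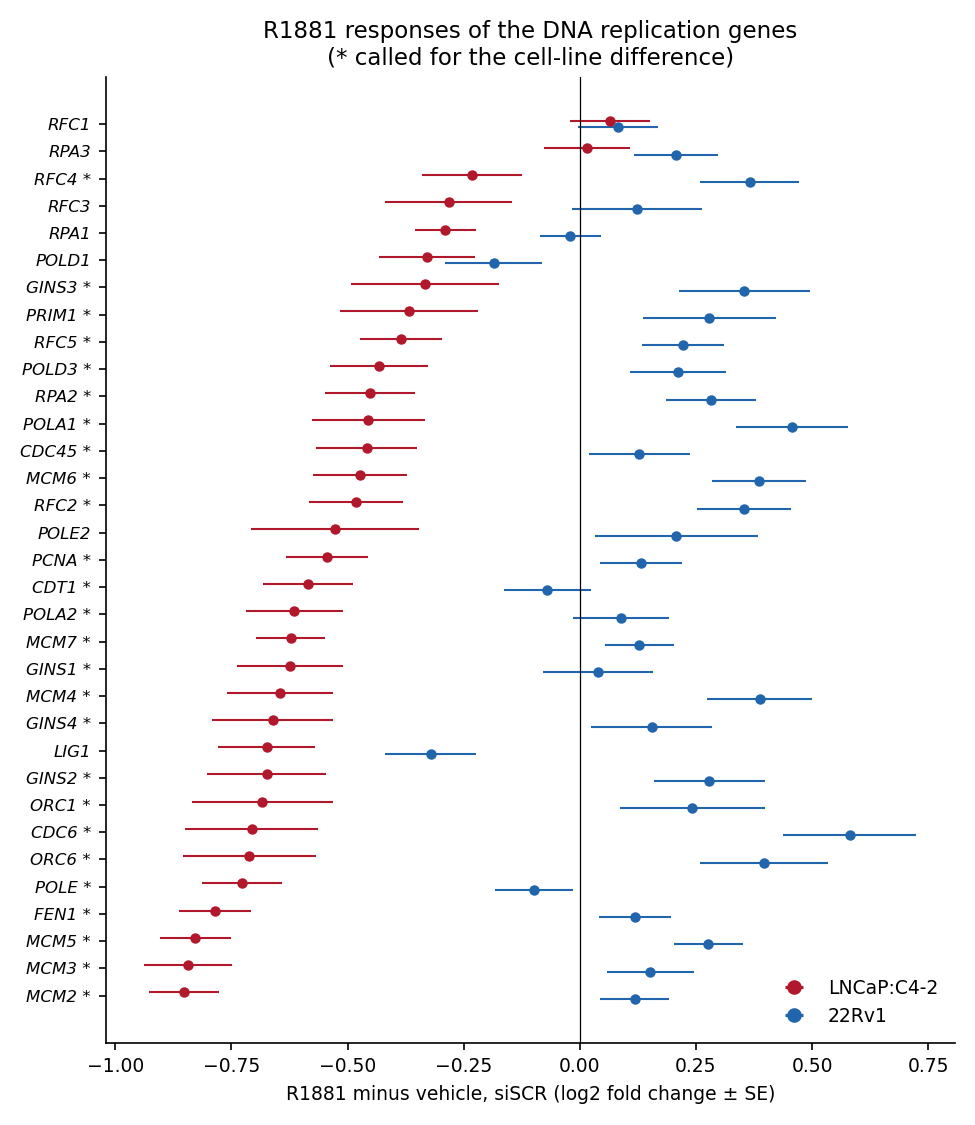
R1881 response (log2 fold change with its SE, siSCR, 3 libraries a group) of the 33 DNA replication genes in LNCaP:C4-2 (red) and 22Rv1 (blue), ordered by the LNCaP:C4-2 value, with a star at the 26 genes called for the difference. MCM5 lies at -0.83 and 0.28.

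Of 28 mitosis genes, 5 had a higher response in 22Rv1 and 0 a lower one (median difference 0.26). This count ranged from 0 without the third R1881 library of 22Rv1 to 9 without the third vehicle library of 22Rv1, and it was 2 with RLE size factors and 9 with library size alone. In LNCaP:C4-2 6 of them fell and in 22Rv1 0. Of 24 G1 cyclins, CDK inhibitors and E2F factors, 7 had a higher and 3 a lower response in 22Rv1 (median difference 0.15). CCNE2, a cyclin of S phase entry, fell from 19.1, 17.1 and 18.4 CPM to 6.0, 7.82 and 9.87 CPM in LNCaP:C4-2 and was at 6.77, 7.33 and 9.01 CPM and 9.34, 7.79 and 9.68 CPM in 22Rv1. CDKN1C, the CDK inhibitor p57, rose from 16.2, 18.8 and 12.6 CPM to 75.4, 34.5 and 42.4 CPM in LNCaP:C4-2 and was at 8.43, 7.60 and 7.86 CPM and 6.21, 5.68 and 6.79 CPM in 22Rv1. CDK4 and E2F2 had differences of 0.82 and 0.90. Of 25 p53 target genes, 9 had a higher response in 22Rv1 and 1 a lower one (median difference 0.33). The total of 10 was 6 without the first vehicle library of LNCaP:C4-2 or the second R1881 library of 22Rv1. GDF15, a stress cytokine, was the lower one, with 124, 188 and 94.9 CPM and 1349, 541 and 636 CPM in LNCaP:C4-2 and 479, 496 and 392 CPM and 804, 733 and 649.7 CPM in 22Rv1.

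Genes of lipid synthesis responded in LNCaP:C4-2. Of 24 genes of cholesterol synthesis and its control, 11 rose there and 0 fell, with a median of 0.55. In 22Rv1 0 rose and 2 fell, with a median of -0.04. The response was lower in 22Rv1 for 18 and higher for 0, with a median difference of -0.68, and with siMETTL3 for 17 and 0. INSIG1, which holds the sterol-sensing complex in the endoplasmic reticulum, went from 872, 997 and 855 CPM to 3012, 2719 and 3263 CPM in LNCaP:C4-2 and was at 286, 271 and 329 CPM and 272, 298 and 335 CPM in 22Rv1 (difference -1.69, SE 0.14, adjusted p = 1.49e-07). FDFT1, squalene synthase, and MSMO1, a sterol oxidase, rose in LNCaP:C4-2 by 1.29 and 1.42 and had 0.18 and 0.09 in 22Rv1. TM7SF2, a sterol reductase, fell in 22Rv1, at -0.97 against -0.26 in LNCaP:C4-2.

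Of 26 genes of fatty acid synthesis and oxidation, 14 rose and 2 fell in LNCaP:C4-2, and 3 rose and 5 fell in 22Rv1 (medians 0.63 and -0.09). The response was lower in 22Rv1 for 16 and higher for 1. The list holds 4 genes of opposite response, more than any other list. SREBF1, the master activator of fatty acid synthesis genes, went from 906, 946 and 832 CPM to 1658, 1245 and 1305 CPM in LNCaP:C4-2 and from 207, 179 and 155 CPM to 119, 117 and 114 CPM in 22Rv1. Its known target SCD, stearoyl-CoA desaturase, went from 2723, 3138 and 2436 CPM to 6151, 4691 and 5070.1 CPM and from 2039, 1877 and 1848 CPM to 1108, 1156 and 1204 CPM. FADS2, another desaturase, was far more abundant in LNCaP:C4-2, at 1820.5, 1896 and 1628 CPM and 3555, 2808 and 2912 CPM, than in 22Rv1, at 47.9, 39.4 and 38.6 CPM and 22.3, 25.3 and 22.3 CPM. ACSL4, which activates polyunsaturated fatty acids, had responses of 0.96 and -0.67. In 22Rv1 the fall of SREBF1 was under 1.5-fold without the first vehicle library (-0.52) and that of ACSL4 without the third vehicle library (-0.51), and in LNCaP:C4-2 the rise of SREBF1 was under it without the first R1881 library (0.54). ACSL3, a related acyl-CoA synthetase, rose in both lines, by 3.03 and 1.40. ELOVL7, an elongase, and ACSS2, which makes acetyl-CoA from acetate, rose in LNCaP:C4-2 by 2.27 and 1.56 and were at 0.22 and -0.15 in 22Rv1.

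The insulin-like growth factor axis held differences in both directions, with 5 of 12 genes lower and 2 higher in 22Rv1 and a median difference of -0.43 (-0.65 at the bound). The median was -0.24 without the third vehicle library of LNCaP:C4-2 and -0.28 without the first R1881 library of 22Rv1. With siMETTL3 it was of the other sign, at 0.34, with 3 lower and 1 higher. IGF1R, the receptor, rose from 8.85, 8.62 and 9.99 CPM to 118, 88.7 and 84.3 CPM in LNCaP:C4-2 and was at 6.08, 5.80 and 6.87 CPM and 5.18, 3.84 and 4.49 CPM in 22Rv1 (difference -3.88, SE 0.22, adjusted p = 1.29e-09). IRS1, the adaptor below it, was a gene of opposite response, with 11.1, 12 and 8.61 CPM and 54.1, 38.6 and 36.5 CPM in LNCaP:C4-2 and 35.9, 30.3 and 27.3 CPM and 16.1, 15.2 and 18.6 CPM in 22Rv1. IRS2, a second adaptor, was just under the threshold in 22Rv1, at 1.92 and -0.57. IGFBP3, the ligand carrier described above, moved the other way in both lines.

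Of 13 ERBB receptors and ligands, 4 had a lower and 1 a higher response in 22Rv1 (median difference -0.89). EGFR, the epidermal growth factor receptor, rose from 103, 130.0 and 120.3 CPM to 403, 332 and 355 CPM in LNCaP:C4-2 and was at 43.6, 43.4 and 37.4 CPM and 27.9, 32.4 and 31.2 CPM in 22Rv1. LRIG1, its negative regulator, had 2.23 and -0.06, and ERBB3 0.45 and -0.44. The ligand HBEGF rose in 22Rv1 from 2.19, 2.19 and 2.64 CPM to 6.70, 5.90 and 6.69 CPM and was at 7.49, 5.64 and 6.66 CPM and 5.59, 3.97 and 4.78 CPM in LNCaP:C4-2. Of 21 AP-1, immediate early and MAPK feedback genes, 6 had a lower and 2 a higher response in 22Rv1 (median difference -0.42). DUSP4, a MAPK phosphatase, rose in LNCaP:C4-2 by 1.77 and was at 0.25 in 22Rv1. DUSP1, of the same family, went from 18.9, 20.9 and 16.8 CPM to 113, 42 and 51.7 CPM in LNCaP:C4-2, again highest in its first R1881 library, and was at 36.9, 38.6 and 35.2 CPM and 28.8, 29.1 and 29.7 CPM in 22Rv1. SPRY4, a feedback inhibitor, rose in 22Rv1 from 34.7, 27 and 27.9 CPM to 44, 43.7 and 47.9 CPM and fell to the floor in LNCaP:C4-2, by at least 1.79 in size, and its rise in 22Rv1 was under 1.5-fold without any 1 of 4 libraries (0.53 to 0.58). SPRY1 had 0.46 and -0.54.

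In the TGF-beta and BMP pathway 15 of 37 genes fell and 2 rose in 22Rv1, with a median of -0.58, and 10 fell and 4 rose in LNCaP:C4-2, with a median of 0.00. The difference was lower in 22Rv1 for 10 and higher for 2, with a median of -0.10. BMPR1B, a BMP receptor, rose from 1.48, 2.34 and 2.18 CPM to 15.7, 19.7 and 13.8 CPM in LNCaP:C4-2 and was at 8.37, 11.6 and 12.1 CPM and 11.4, 12.5 and 11.3 CPM in 22Rv1. The feedback inhibitor PMEPA1 rose in both, by 3.24 and 1.5. SMAD6, an inhibitory SMAD, fell in 22Rv1 (-1.15) and was at 0.05 in LNCaP:C4-2, and SMAD9, a BMP effector, rose in LNCaP:C4-2 (0.70) and was at -0.38 in 22Rv1. Of 34 WNT pathway genes, 6 had a higher and 4 a lower response in 22Rv1 (median difference 0.02). The receptor LGR4 and the ligand WNT7B were of opposite response, with 0.59 and -1.36, and with 1.06 and -1.37. The LNCaP:C4-2 rise of LGR4 was under 1.5-fold without any 1 of 4 of that line's libraries (0.53 to 0.58), and the 22Rv1 call of WNT7B was lost without any 1 of 4 of the 22Rv1 libraries (adjusted p of 0.0605 to 0.0686). LEF1, a nuclear effector, fell from 5.41, 3.46 and 5.57 CPM to 1.06, 1.35 and 1.04 CPM in LNCaP:C4-2 and was at 9.71, 8.97 and 11.2 CPM and 14.3, 13.1 and 14.5 CPM in 22Rv1. The receptors FZD5 and FZD3 had differences of -1.18 and 1.04.

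Axon guidance genes fell mainly in 22Rv1, where 20 of 50 fell and 1 rose, against 6 and 6 in LNCaP:C4-2. The response was lower in 22Rv1 for 14 and higher for 1, with a median difference of -0.27. The Eph receptor EPHA7 went from 34.1, 33.3 and 40.7 CPM to 8.15, 7.12 and 8.67 CPM in 22Rv1 and was at 10.7, 10.6 and 10.8 CPM and 10.5, 15.8 and 10.9 CPM in LNCaP:C4-2 (difference -2.38, SE 0.21, adjusted p = 3.93e-07). EPHA3 and the ligand EFNA5 fell in 22Rv1, with -1.77 and -1.07 against -0.32 and 0.22. NRP1, a semaphorin and VEGF co-receptor, rose by 0.69 in LNCaP:C4-2 and was at -0.54 in 22Rv1. SEMA6D, an opposite gene by its fitted values, fell in 22Rv1 (-1.97) and started from the floor in LNCaP:C4-2. Its bound there, at least 0.47, is under the 1.5-fold threshold, so a rise of that size is not shown. Its LNCaP:C4-2 call was lost without the first vehicle, the second vehicle or the third R1881 library of that line (adjusted p of 0.0751 to 0.0764).

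Of 44 matrix and focal adhesion genes, 10 had a lower and 5 a higher response in 22Rv1 (median difference 0.03). The laminin chains parted: LAMB1 fell in 22Rv1 (-1.31) and was at -0.07 in LNCaP:C4-2, while LAMA3 rose there (1.48) and was close to the 1.5-fold threshold in LNCaP:C4-2 (0.61, and 0.56 to 0.57 without the first vehicle, the second vehicle or the third R1881 library). THBS1, thrombospondin, fell in 22Rv1 (responses -0.21 and -1.23 in LNCaP:C4-2 and 22Rv1), and FN1, fibronectin, fell in LNCaP:C4-2 (responses -1.09 and -0.46). Of 20 genes of epithelial and mesenchymal state, 7 rose in LNCaP:C4-2 and 0 in 22Rv1, and 6 had a lower and 1 a higher response in 22Rv1 (median difference -0.45, or -0.29 at the bound). KRT19, a keratin, went from 17.2, 17.7 and 13.4 CPM to 74.3, 48 and 54.6 CPM in LNCaP:C4-2 and was at 7.57, 6.89 and 5.77 CPM and 6.10, 4.73 and 4.87 CPM in 22Rv1. CLDN4 and TJP1, of tight junctions, had differences of -1.31 and -0.59, and OVOL1, an epithelial factor, fell in 22Rv1 (response -1.77). Of 16 neuroendocrine markers, 6 fell in 22Rv1 and 2 in LNCaP:C4-2, with 2 lower and 2 higher differences and a median difference of -0.28, or -0.07 at the bound. DLL3, a Notch ligand, fell from 5.65, 6.07 and 3.35 CPM to 1.89, 1.56 and 1.77 CPM in 22Rv1 and was at 12.2, 14.2 and 11.9 CPM and 16.9, 12.6 and 12.1 CPM in LNCaP:C4-2.

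Of 28 glycolysis genes and HIF-1 targets, 13 rose in LNCaP:C4-2 and 1 in 22Rv1, and 12 had a lower and 0 a higher response in 22Rv1. With siMETTL3 the counts were 5 and 3, and the median difference was 0.09 in place of -0.45. EGLN3, an oxygen sensor, fell in 22Rv1 from 5.87, 4.70 and 4.51 CPM to 0.594, 0.668 and 1.02 CPM and was at 83.3, 96.8 and 84 CPM and 92.2, 84.2 and 93.3 CPM in LNCaP:C4-2. The enzymes ALDOC and ENO2 and the growth factor VEGFA had responses of 1.25, 1.12 and 1.53 in LNCaP:C4-2 and of -0.53, -0.51 and 0.50 in 22Rv1. Of 12 polyamine genes, 4 had a lower and 0 a higher response in 22Rv1 (median difference -0.30). SAT1, which starts polyamine breakdown, rose from 21.8, 23.3 and 18.7 CPM to 194, 149 and 161 CPM in LNCaP:C4-2 and was at 80.5, 88.9 and 93.7 CPM and 91.7, 88.6 and 103 CPM in 22Rv1. ODC1, the first enzyme of synthesis, and SMS, spermine synthase, had differences of -0.96 and -1.14.

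Of 25 genes of secretory stress, 6 had a higher and 4 a lower response in 22Rv1 (median difference 0.04), and the total was 6 without the second vehicle library of LNCaP:C4-2. HSPA5, the chaperone BiP, rose in 22Rv1 from 620.1, 719 and 671 CPM to 1177, 1220.0 and 1110.1 CPM and was at 728, 776 and 797 CPM and 774, 754 and 804 CPM in LNCaP:C4-2. CREB3L4, a membrane-bound factor of prostate secretory cells, rose in LNCaP:C4-2 by 0.73 and was at -0.15 in 22Rv1. Of 17 metallothionein and zinc transport genes, 5 had a higher and 1 a lower response in 22Rv1 (median difference 0.14, or -0.01 at the bound). The metallothioneins MT2A and MT1X, which bind zinc, were genes of opposite response. MT2A went from 80.2, 80.3 and 79.4 CPM to 32, 33.6 and 35.7 CPM in LNCaP:C4-2 and from 42.6, 53.6 and 56 CPM to 74.9, 80.7 and 98.5 CPM in 22Rv1. MT1X had responses of -1.36 and 0.76, and its 22Rv1 call was lost without the first vehicle or the third R1881 library of 22Rv1 (adjusted p = 0.0777 and 0.112). As close copies of other members, both have uncertain counts. Of 25 amino acid transporters, 6 had a lower and 5 a higher response in 22Rv1 (median difference -0.01). SLC7A8, of opposite response, had 0.75 and -0.79. SLC38A4 rose in both lines, by at least 5.23 from the floor in LNCaP:C4-2 and by 3.12 in 22Rv1, and SLC43A1 rose by 1.99 and 1.41.

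Of 31 genes of interferon response and antigen presentation, 3 had a higher and 4 a lower response in 22Rv1 (median difference -0.09), with NLRC5 as the 1 of opposite response. IRF1, an interferon-induced transcription factor, fell from 11, 9.85 and 9.59 CPM to 3.23, 3.78 and 3.48 CPM in LNCaP:C4-2 and was at 5.33, 4.70 and 4.29 CPM and 5.89, 5.45 and 5.08 CPM in 22Rv1. Of 7 markers of other cell types that were tested, 1 was called for the difference, PTPRC, a leukocyte gene that was at or under 1.38 CPM on average in every group. That count was 0 to 2 with a library left out. Of the 10 luminal markers 5 had a lower response in 22Rv1 and 0 a higher one.

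The median differences of several lists rested on single libraries. Without the first R1881 library of LNCaP:C4-2 the median was 0.07 for mitosis, 0.05 for G1 cyclins, CDK inhibitors and E2F factors, 0.20 for p53 targets and -0.20 for the AP-1, immediate early and MAPK feedback genes. It was -0.21 for the last of these without the third vehicle library of that line. Without the third R1881 library of 22Rv1 it was 0.16 for mitosis, 0.06 for the G1 list, 0.08 for metallothioneins and zinc transport and -0.70 for epithelial and mesenchymal state. Without the third vehicle library of 22Rv1 it was 0.22 for the G1 list, and without the first it was -0.17 for axon guidance. For metallothioneins and zinc transport it was 0.22 without the third vehicle library and 0.08 without the third R1881 library of LNCaP:C4-2. Neuroendocrine markers ranged from -0.59 without the first vehicle library to -0.12 without the second R1881 library of LNCaP:C4-2, and the TGF-beta and BMP list from -0.23 without the first vehicle library of LNCaP:C4-2 to -0.05 without the third vehicle library of 22Rv1. Cofactors and lineage factors ranged from -0.19 without the third vehicle library to -0.08 without the first R1881 library of LNCaP:C4-2, and the interferon list from -0.19 without the first to -0.04 without the second vehicle library of 22Rv1. The medians of the secretory stress, matrix, WNT and amino acid transporter lists were under 0.05 in size and changed sign without at least 1 library, so no direction is drawn from them.

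With siMETTL3 some medians were nearer to 0 than with siSCR. The median was 0.84 for UDP-glucuronosyltransferases, -0.33 for ERBB receptors and ligands, -0.07 for the AP-1, immediate early and MAPK feedback genes, 0.15 for steroid receptors and chaperones and -0.13 for neuroendocrine markers. In these lists 4, 1, 3, 1 and 0 members had a higher response in 22Rv1, and 1, 3, 4, 0 and 2 a lower one. The change of these medians between the siRNA pools was not tested.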

How the data were processed

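RNA was sequenced in 24 libraries. Per the labels and the study's methods, the authors trimmed reads with Trim Galore and cutadapt, aligned them with STAR to GRCh38 and counted them per gene with featureCounts 1.5.0-p1 and the Ensembl release 83 annotation. The deposited values are raw read counts. For each set of 12 libraries (siSCR or siMETTL3), genes were kept by filterByExpr (count minimum 10, total minimum 15), scaled by TMM and tested with edgeR 4.0.16 (R 4.3.3), quasi-likelihood, on 4 group means with 8 residual degrees of freedom. All adjusted p-values are Benjamini-Hochberg over all genes tested. Responses were called at adjusted p under 0.05 and 1.5-fold, and differences at adjusted p under 0.05. CPM used the TMM-adjusted totals. The members and lists were chosen with earlier results of these data known. Named genes were the 10 opposite genes per direction with the largest smaller response, the 6 largest differences per direction, up to 4 genes per line silent in the other, up to 4 called members of each list with its opposite members, 4 per direction that moved together, and fixed controls (KLK3, KLK2, TMPRSS2, FKBP5 and METTL3 among them). Some genes that this rule names are not reported here. In data simulated for the difference in siSCR (18136 genes), edgeR recovered 47% of 200 genes changed by 1 on the log2 scale. Alternatives were DESeq2 1.42.0, RLE factors, library size alone, other filters and thresholds, all 24 libraries, a replicate block and each library left out.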

Additional observations from a re-analysis of the deposited data

Results flagged for a closer look

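The R1881 response differed between LNCaP:C4-2 and 22Rv1 at 3203 genes in the siSCR libraries and at 2533 genes in the siMETTL3 libraries, by the interaction of cell line and treatment in edgeR's quasi-likelihood test. Of the siSCR calls, 1573 were called in the same direction in siMETTL3. Groups of 3 libraries were not tested for outliers.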

How the results depend on the processing

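The number of genes that differed in response between the lines in siSCR was 1685 in place of 3203 at an adjusted p under 0.01, and 2427 to 3474 with 1 library left out. The split of these calls was 1392 higher and 1811 lower in 22Rv1, and 1949 and 1488 with library size alone. Genes of opposite response numbered 70 at the stricter adjusted p of 0.01, 371 without a fold threshold and 74 with at least 10 counts in every library, which tests fewer genes, and 94 to 136 with 1 library left out. Without a fold threshold 5114 genes were called in LNCaP:C4-2 and 4440 in 22Rv1, and with at least 10 counts in every library 1291 in 22Rv1. Leaving out 1 library gave 2368 to 2806 calls in LNCaP:C4-2 and 1744 to 2499 in 22Rv1. The difference in siMETTL3 was called at 1236 genes at an adjusted p under 0.01 and at 1728 to 3622 with 1 library left out. The other alternatives gave counts within 1.5 times the main ones, DESeq2 for example 3576 differences and 130 opposite genes, of which 115 were among the 121. Of the differences of 159 named genes, 37 values over 20 genes lost their call in the other alternatives and 95 values over 20 genes with 1 library left out. TGM2, whose difference was not called, ranged from -0.27 to 0.66 with 1 library left out and was negative without 22Rv1 vehicle replicate 1 (-0.27) and without LNCaP:C4-2 R1881 replicate 2 (-0.12) or 3 (-0.10). FFAR2, likewise not called, ranged from -0.79 (without 22Rv1 R1881 replicate 2) to 0.70. The cause was not tested for these.

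The labels do not say that a replicate number marks a shared culture or day, and not every pair of same-numbered siSCR libraries had a correlation over 0.1 in their deviations from the group means (-0.0773 to 0.242), so the numbers were not taken as pairs. The mean correlation was 0.0813 across and 0.0536 within the lines for the same number and -0.0408 and -0.0271 for different numbers, and 8 of the 12 siSCR libraries correlated best with their own number, a hint from the data that leaves a partial pairing possible. With a replicate block the difference was called at 4276 genes and 136 genes were of opposite response, 119 of them among the 121. With a replicate block within each cell line these were 3886 and 133, and in siMETTL3 the differences were 2481 and 1854. Genes near the floor of 3 counts (0.143 to 0.179 CPM on the raw library totals) give bounds only.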
